A study of Mus musculus with 12 samples.

Results

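The comparison of Kansl1+/- with wt hippocampus is described here through 316 of the 1076 Gene Ontology (GO) terms that the study deposited for 8 gene lists. They are all terms listed for the genes whose promoters carried more H3K4me3 in Kansl1+/- (302 terms) and all terms listed for the genes whose promoters carried less (14 terms). The mark was profiled by ChIP-seq in whole hippocampus from C57BL/6N mice at postnatal day 30, and 3 Kansl1+/- libraries were set against 6 wt libraries. Of these wt mice, 3 came from the Kansl1 line and 3 from the line that carries the Arf2-Kansl1 deletion (Del/+), which had 3 mutant mice of its own. The Kansl1+/- mice carried 1 copy of a knockout allele in which Cre had removed a critical exon, in a line that came from 1 ES cell clone. The study describes no removal of the promoter, so the promoter mark of Kansl1 was not taken as a check of the genotype. Kansl1 was in neither of the study's gene lists for these mice.

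Kansl1 encodes a scaffold protein of the NSL complex, which holds a histone acetyltransferase (Kat8) and binds at promoters of active genes. Trimethylation of lysine 4 on histone H3 marks the start sites of active genes, and in mixed tissue its height at a promoter reflects both how many cells use the gene and how strongly each of them is marked. In whole hippocampus, a different number of cells of a type and a different amount of the mark per cell cannot be told apart. Processed values per mouse were not analysed here, so the depth of the libraries is unknown and no spread between mice stands behind any count. Each count is of genes that the authors took from promoters called at an uncorrected p below 0.01. The list sizes recovered here count genes, they differ from the numbers of promoters that the study gives, and the step from promoters to genes was not retraced.

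The expected numbers in the files returned lists of 343 genes higher and 483 genes lower in Kansl1+/-, drawn on a background of 23468 annotated genes. These are 1.46% and 2.06% of the background. For each term, a one-sided exact hypergeometric p was recomputed from the gene counts and used to rank the terms. The files list only terms that were already below a p of 1e-05, so these p-values order the terms and test nothing further. Of the 21172 terms tested, 1.43% were listed for the higher genes and 0.0661% for the lower genes. With Bonferroni correction over all terms and a threshold of 0.05, 237 terms were called for the higher genes (1.12%) and 9 for the lower genes (0.0425%). No term was listed in both directions. The background holds all annotated genes, whether or not they carry H3K4me3 in hippocampus. A list drawn from promoters active in brain can exceed the background share of brain terms, or of any term rich in such promoters, for that reason alone. This limit holds for both directions.

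The 2 directions differed in the kind of term they held. The smaller list, that of higher genes, had 183 specific terms, defined as terms with at most 1000 background genes, and 132 of them were called. With a limit of 500 genes 79 were called, and with the more conservative EASE count, which takes 1 gene from each term, 92 were. Among the terms named below, the EASE count ended the call of endochondral bone morphogenesis, complex of collagen trimers and regulation of organ formation. It also ended those of innate immune response in mucosa, sprouting angiogenesis, smooth muscle contraction, regulation of amine transport and somatic stem cell maintenance. Epithelial to mesenchymal transition and negative regulation of immune system process lost their call as well. The 183 specific terms named skeletal, matrix, vascular and epithelial development, neuron development, nucleosomes, growth factor signalling and cell-cell signalling. The larger list, that of lower genes, had 1 specific term and 13 broad ones, which named the mitochondrion, metabolism and the cell interior. The median listed term held 724 background genes for the higher list and 10119 for the lower list. Folds over the background share had a median of 3.05 in the higher list and 1.27 in the lower list.

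**Figure D1:**
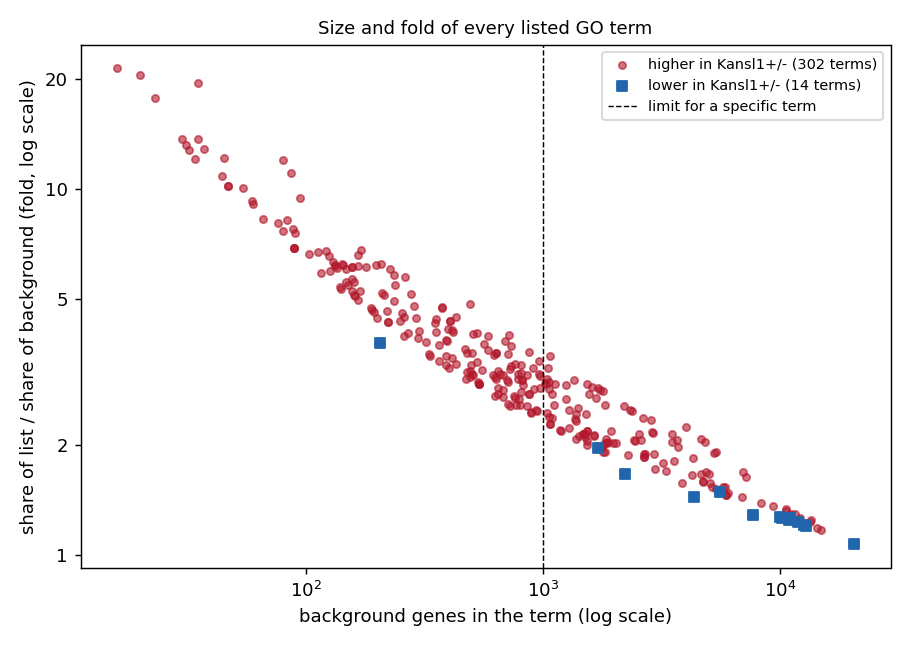
Each point is 1 listed term, with its number of background genes on a log x axis and its fold (share of the list over share of the background) on a log y axis; red circles are terms of the genes higher in Kansl1+/- and blue squares those of the genes lower. The fold falls as the term grows, from 21.4 at 16 genes to 1.17 among the broadest terms of the higher list, and all but 1 of the blue squares lie right of the dashed line at 1000 genes.

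Fold and term size were tied by the listing limit, because a small term needs a high fold to reach the same p. Among the 14 terms of the higher list with up to 50 background genes, folds ran from 10.2 to 21.4 with a median of 13.1. Among the 66 terms with 501 to 1000 genes, they ran from 2.45 to 4.04 with a median of 3.05. The highest fold of a theme, given below, therefore marks mostly a small term and sets no order of importance. Terms within a theme are nested and share genes, so their number counts names and not independent results.

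Skeletal system development had the lowest p of the specific terms of the higher genes. It held 35 of the 343 genes (10.2%, exact 95% Clopper-Pearson interval 7.21% to 13.9%). The background share was 2.10%, and the corrected exact p was 2.98e-10. Intervals here and below cover counting error only. The theme of skeleton, limb and growth had 15 specific terms, of which 11 were called, with folds from 3.13 to 9.46. Bone morphogenesis held 13 of its 94 background genes, the highest fold of the theme at 9.46. Cartilage development held 16 genes (6.63-fold) and endochondral bone morphogenesis, the making of bone on a cartilage model, held 8 (9.28-fold). The 4 limb and appendage terms held 12 or 13 genes each, at 4.68- to 5.13-fold, and none of these was called after correction.

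The study's list of higher genes names several transcription factors known from this tissue programme. Sox9 is required for cartilage formation, Msx1 and Msx2 act in skull and limb buds, Prrx1 marks limb and craniofacial mesenchyme, and Barx2 is a homeobox factor. It also names Bmp6 and Bmp3, of which Bmp6 is a bone-inducing ligand. Sox9 is also made by astrocytes in the adult brain. To show what kind of promoter stands behind these names, the RefSeq window of Msx2 on GRCm38 (chr13:53472731-53473030, minus strand) runs from 250 bases before to 50 after the start site, with CpG dinucleotides in capitals. It has 22 CpG dinucleotides, where the median of 32851 RefSeq windows is 7.
Msx2: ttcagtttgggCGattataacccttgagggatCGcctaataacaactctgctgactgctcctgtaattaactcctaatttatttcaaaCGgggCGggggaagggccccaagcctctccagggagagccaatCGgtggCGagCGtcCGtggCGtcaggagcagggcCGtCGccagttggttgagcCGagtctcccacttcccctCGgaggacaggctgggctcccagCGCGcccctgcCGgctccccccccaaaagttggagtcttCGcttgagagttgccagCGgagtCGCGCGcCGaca
The window of Msx1 had 29 CpG dinucleotides and that of Prrx1 had 6. The files were mapped to mm9 according to the submitters' processing notes and hold no coordinates, so positions given here belong to the GRCm38 annotation.

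Extracellular matrix terms stood in places 14 and below among the specific terms. Extracellular matrix held 28 genes (8.16%, 5.49% to 11.6%) against 1.82% of the background, and extracellular matrix organization held 26 (7.58%, 5.01% to 10.9%) against 1.59%. Their corrected exact p-values were 9.56e-07 and 1.29e-06. The theme had 7 specific terms, of which 6 were called, and all 7 were also listed for cluster 1, the set of 160 genes that the study grouped as higher in Kansl1+/- and not in Del/+. Complex of collagen trimers had the highest fold, with 6 of its 23 genes (17.8-fold). The list names the collagens Col4a3 and Col4a4 of basement membranes, the fibrillar Col5a2 and Col27a1, Col6a1, Col12a1 and Col18a1. It also names decorin (Dcn), a small proteoglycan, matrix Gla protein (Mgp), an inhibitor of calcification, the fibulins Fbln2 and Fbln7, the collagen crosslinking enzyme Loxl2, the membrane protease Mmp14, the metalloprotease inhibitor Timp3, the matrix proteins Adamtsl2 and Frem1, and dystroglycan (Dag1), a receptor for matrix proteins.

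The window of Col6a1, a microfibril collagen, differed in base composition from that of Msx2. On GRCm38 (chr10:76725995-76726294, minus strand) it had 3 CpG dinucleotides, shown in capitals, which is the 25th percentile of all windows.
Col6a1: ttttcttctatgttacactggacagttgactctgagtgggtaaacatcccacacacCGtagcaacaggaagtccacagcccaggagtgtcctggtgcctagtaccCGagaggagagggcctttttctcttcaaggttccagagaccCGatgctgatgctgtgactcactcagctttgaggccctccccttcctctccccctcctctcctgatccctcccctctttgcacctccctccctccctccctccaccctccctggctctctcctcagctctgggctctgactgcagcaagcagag
Windows of the 11 named matrix genes found in the table ranged from 3 to 30 CpG dinucleotides with a median of 14, so the named genes of this group do not share 1 promoter composition.

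Neuron terms made up the theme with the most names among the 20 leading specific terms, 7 of them. Neuron projection development held 42 genes (12.2%, 8.97% to 16.2%) where the background share was 3.05%, at a corrected exact p of 4.11e-10. Neuron development held 46 genes (13.4%, 9.99% to 17.5%) against 3.73%. The theme had 19 specific terms, 16 of them called, at folds between 2.58 and 4.37. The highest fold belonged to axon guidance and to neuron projection guidance, each with 26 of 407 genes. Central nervous system development held 30 of 797 genes and was not called (corrected exact p = 0.0523). Guidance genes in the list include the ligands Slit2, Sema3e, Sema4a and Efnb2 and the receptors Plxna2, Plxna4, Epha5 and Unc5d, which steer growing axons. Neural transcription factors in the list include Sox4, Pou3f2, En2, Otx1, Eomes, Nr2e1 and Dlx6, of which Dlx6 is known from interneurons and Nr2e1 from neural stem cells.

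**Figure D2:**
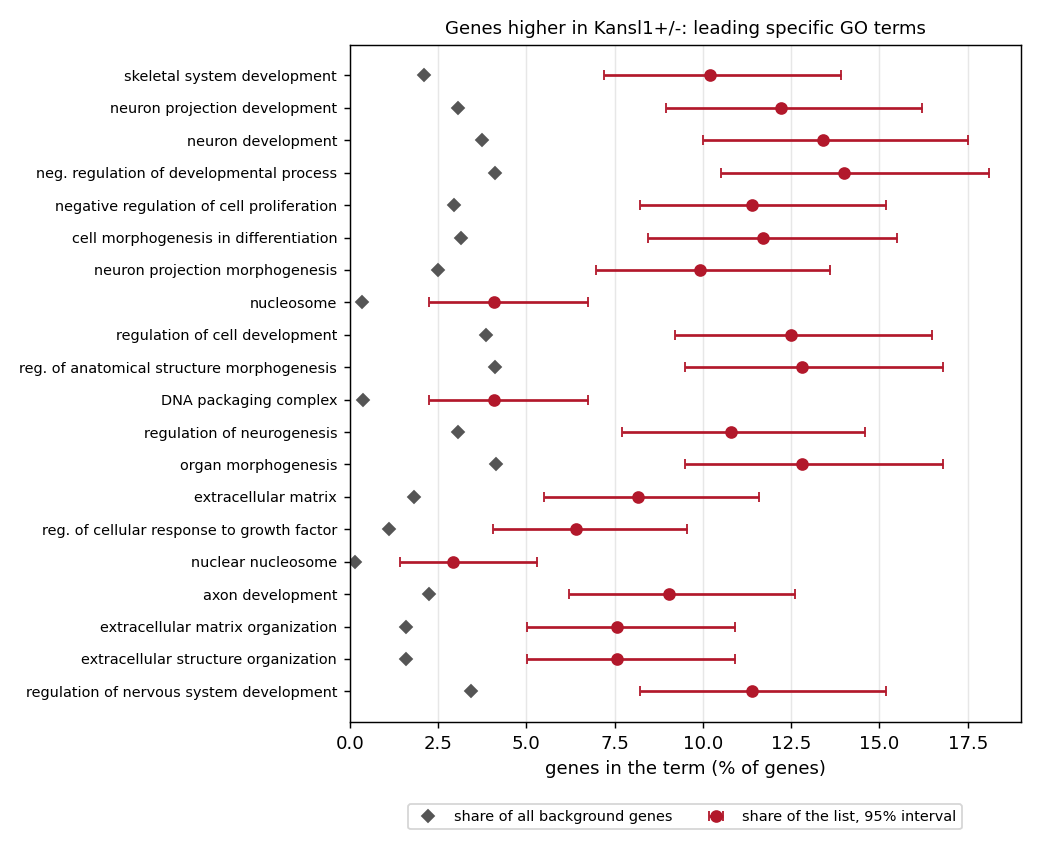
Red circles show the share of the 343 genes higher in Kansl1+/- that each of the 20 specific GO terms with the lowest exact p holds, in percent, with exact 95% intervals as bars, and grey diamonds show the share of the 23468 background genes. Terms are in order of p from the top, from skeletal system development at 10.2% against 2.10% to regulation of nervous system development at 11.4% against 3.44%. The terms were picked by their p, so the gap between circle and diamond is a description.

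Chromatin terms described a set of few genes. For nucleosome, 14 of 80 annotated genes were in the list (4.08% of it, 2.25% to 6.75%), where the background share was 0.341% and the corrected exact p 2.08e-07. Nuclear nucleosome held 10 of 35 genes, at 19.5-fold, and DNA packaging complex 14 of 86. The theme had 10 specific terms and 9 of them were called, all with 7 to 14 genes. Chromatin assembly or disassembly, with 12 of 156 genes, was not called. The list names 18 core histone genes of the cluster on chromosome 13, which are Hist1h2ac, Hist1h2ad, Hist1h2ae, Hist1h2af, Hist1h2ag, Hist1h2ah, Hist1h2ai, Hist1h2bc, Hist1h2bf, Hist1h2bg, Hist1h2bj, Hist1h2bk, Hist1h2bl, Hist1h3d, Hist1h3g, Hist1h3h, Hist1h4h and Hist1h4i. These genes encode the H2A, H2B, H3 and H4 proteins that form the nucleosome core, and their copies are nearly identical in sequence. How the authors' mapping divided reads between the copies is not given in the sources used here. The nucleosome term held 14 genes, so not all of the 18 named genes were counted in it.

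The promoters of these histone genes are shown because several are shared between neighbours. RefSeq windows were found for 17 of the 18 genes. For 5 pairs of an H2A and an H2B gene on opposite strands, Hist1h2ad with Hist1h2bf, Hist1h2ae with Hist1h2bg, Hist1h2ag with Hist1h2bj, Hist1h2ah with Hist1h2bk and Hist1h2ai with Hist1h2bl, the windows overlapped by 252 to 279 of 300 bases. A single peak of H3K4me3 over such a window would therefore lie at the start of both genes, and the 10 genes of these pairs are not 10 separate promoters. The motif CCAAT, searched on both strands, was in 15 of the 17 windows and in 37.4% of all RefSeq windows. TATAAA was in 10 of 17 against 13.6%, and the octamer ATTTGCAT in 5 of 17 against 1.74%. Overlapping windows count the same bases again, so these shares are a description. In the windows of Hist1h2bk (chr13:22035571-22035870, plus strand) and Hist1h3h (chr13:21717378-21717677, plus strand) on GRCm38, capitals mark the motifs found on either strand, which overlap nowhere in these windows. Hist1h2bk held all 3 motifs, and Hist1h3h held CCAAT and TATAAA but not the octamer.
Hist1h2bk: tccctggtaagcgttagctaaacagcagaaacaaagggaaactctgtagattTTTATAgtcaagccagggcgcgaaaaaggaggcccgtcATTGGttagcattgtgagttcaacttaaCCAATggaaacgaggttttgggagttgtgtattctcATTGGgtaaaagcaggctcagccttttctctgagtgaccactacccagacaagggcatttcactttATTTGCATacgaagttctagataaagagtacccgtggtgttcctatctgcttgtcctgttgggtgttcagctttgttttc
Hist1h3h: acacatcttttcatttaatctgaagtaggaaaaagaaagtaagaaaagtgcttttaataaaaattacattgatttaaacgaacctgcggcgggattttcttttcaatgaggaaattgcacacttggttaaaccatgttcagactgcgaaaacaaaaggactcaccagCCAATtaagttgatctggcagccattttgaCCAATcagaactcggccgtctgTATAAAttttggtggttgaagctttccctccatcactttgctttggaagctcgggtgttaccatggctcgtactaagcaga

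The 5 mucosal and humoral immune terms of the higher list each held 6 genes. Innate immune response in mucosa held 6 of 20 background genes (20.5-fold, corrected exact p = 0.00644) and was called. Mucosal immune response, organ or tissue specific immune response, antibacterial humoral response and antimicrobial humoral response also held 6 genes each, of 30 to 34, and were not called. GO annotates some H2B histones to these terms for their antibacterial activity, and the list names 6 H2B genes, but the sources used here do not name the genes behind these terms. All 5 terms were listed for cluster 2 with 6 genes, as nucleosome was with 13, and for none of the other clusters.

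Synapse and signalling terms stood lower in the order. Cell-cell signaling was the first of them, in place 40 of the 183 specific terms, with 41 genes (12.0%, 8.72% to 15.9%) against a background share of 4.16%, and a corrected exact p of 2.93e-05. Synaptic transmission held 28 genes (8.16%, 5.49% to 11.6%) against 2.63%, with a corrected exact p of 0.00303. Of 11 specific terms in this theme, 6 were called. Regulation of behavior held 19 of 237 genes at 5.49-fold, and regulation of amine transport, the highest fold of the theme, held 10 of 90 (7.60-fold).

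For synaptic transmission and regulation of behavior, the study's gene lists do name the members. Under synaptic transmission these include the serotonin receptors Htr1b, Htr2a and Htr2c, the muscarinic receptor Chrm3, the glutamate receptor subunit Grin3a and the metabotropic receptor Grm8. Peptide receptors are Sstr1 and Sstr3 for somatostatin, Tacr3 for neurokinin B, Hcrtr2 for orexin and Npffr2 for neuropeptide FF. Channels are the calcium channel subunits Cacna1g, Cacnb4 and Cacng4, the pacemaker channel Hcn4 and the potassium channel genes Kcnj4, Kcnq5 and Kcnmb4. Bdnf, a neurotrophin, the adhesion protein Nlgn1 and Gad2, which makes GABA from glutamate, were also among them, as were Dlgap2, Gng4 and Syt10. Under regulation of behavior, the names included the cannabinoid receptor Cnr1 and the corticotropin-releasing hormone receptor Crhr2 beside Htr1b, Htr2a, Hcrtr2 and Tacr3. The Gad2 window on GRCm38 (chr2:22622077-22622376, plus strand) had 14 CpG dinucleotides, in capitals, and the 21 windows found for the 26 named genes of this group had a median of 11. The lower list names 4 genes of the same group, Bche, Gng7, Syn3 and Sytl4, and the 3 windows found for them had 7 to 20 CpG dinucleotides with a median of 8. Both sets were picked by name from lists of unequal length, so their sizes are not compared.
Gad2: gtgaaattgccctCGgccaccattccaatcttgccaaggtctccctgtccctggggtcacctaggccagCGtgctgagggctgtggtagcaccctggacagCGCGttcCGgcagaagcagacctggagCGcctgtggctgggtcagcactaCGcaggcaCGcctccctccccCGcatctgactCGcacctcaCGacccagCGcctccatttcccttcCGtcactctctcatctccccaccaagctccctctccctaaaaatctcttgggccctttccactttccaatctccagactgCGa

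Growth factor and kinase signalling had 14 specific terms, of which 8 were called. Regulation of cellular response to growth factor stimulus held 22 of 261 genes (6.41%, 4.06% to 9.55%) against a background share of 1.11%, at a corrected exact p of 1.02e-06. Regulation of BMP signaling pathway held 9 of 89 genes, the highest fold of the theme at 6.92, and was not called (corrected exact p = 0.132). The list names both activators and inhibitors of these pathways. Activators are the ligands Bmp6, Fgf10 and Wnt2, the Wnt enhancers Rspo2 and Rspo3 and the receptors Fgfr1, Kdr and Notch1. Inhibitors are Nbl1, a BMP antagonist, and the secreted Wnt antagonists Sfrp1 and Sfrp2. Lfng modifies Notch, and Hes1 is a target of it. The counts do not separate the genes that raise signalling from those that lower it.

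Organ, epithelium and embryo terms were the largest theme, with 35 specific terms and 28 called. Organ morphogenesis held 44 genes (12.8%, 9.48% to 16.8%) against a background share of 4.15%, at a corrected exact p of 6.57e-07. Morphogenesis of a branching structure held 19 of 208 (6.25-fold), and regulation of organ formation, with 7 of 35 genes, had the highest fold at 13.7. Kidney development held 17 genes, gland development 22, reproductive system development 25, ear development 14 and digestive system development 11, of which the last 2 were not called. Cell fate commitment held 21 of 278 genes (5.17-fold).

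Heart, vessel and muscle had 20 specific terms and 12 called. Cardiovascular system development and circulatory system development each held 36 of 816 genes (10.5%, 7.46% to 14.2%, against 3.48%). Sprouting angiogenesis, the outgrowth of new capillaries, held 8 of 45 genes at 12.2-fold (corrected exact p = 0.00547), and smooth muscle contraction held 8 of 54 at 10.1-fold (0.0235 by the same exact test). Regulation of blood circulation held 17 of 259. Kdr, the main receptor for vascular endothelial growth factor, is in the list.

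Stem cell and mesenchyme terms numbered 11, with 10 called and counts of 9 to 21 genes. Stem cell development held 20 of 285 genes (4.80-fold, corrected exact p = 1.88e-04), somatic stem cell maintenance 9 of 76 (8.10-fold), and epithelial to mesenchymal transition 10 of 88 (7.77-fold). Migration and taxis had 10 specific terms with 8 called. Chemotaxis held 33 of 631 genes (9.62%, 6.72% to 13.2%) against 2.69%, and tissue migration had the highest fold with 9 of 89 genes (6.92) and was not called.

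Terms outside these themes numbered 26, with 17 called. Negative regulation of developmental process held 48 genes, the highest count of any specific term (14.0%, 10.5% to 18.1%, against 4.11%), with a corrected exact p of 2.39e-09. Negative and positive regulation of cell proliferation each held 39 genes, of 694 and 859 background genes, and both were called. Response to hormone held 35 of 731 genes. Glycosphingolipid biosynthetic process had the highest fold of all listed terms, with 5 of 16 genes (21.4-fold), and its corrected exact p of 0.0525 missed the threshold.

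The same term was listed with different counts in the study's other gene lists. The clusters were made from these same calls, and the Del/+ lists used the same 6 wt libraries, so the counts are given side by side without a test. Skeletal system development held 22 genes of cluster 1 and was listed for no other cluster and not for the 512 genes higher in Del/+, where 28 genes would have been needed. Extracellular matrix organization held 20 genes of cluster 1. Endochondral bone morphogenesis held 8 genes of the higher list and 8 of cluster 1. Nucleosome held 13 genes of cluster 2, the set that the study grouped as higher in both mutants, and was listed for no other cluster and not for the genes higher in Del/+, where 10 genes would have been needed. Synaptic transmission was not listed for cluster 1, which would have needed 16 genes, and held 25 genes of cluster 2 and 69 genes higher in Del/+. Neuron projection development was listed for all 4 clusters with 23, 24, 25 and 20 genes, and for Del/+ with 59.

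**Figure D3:**
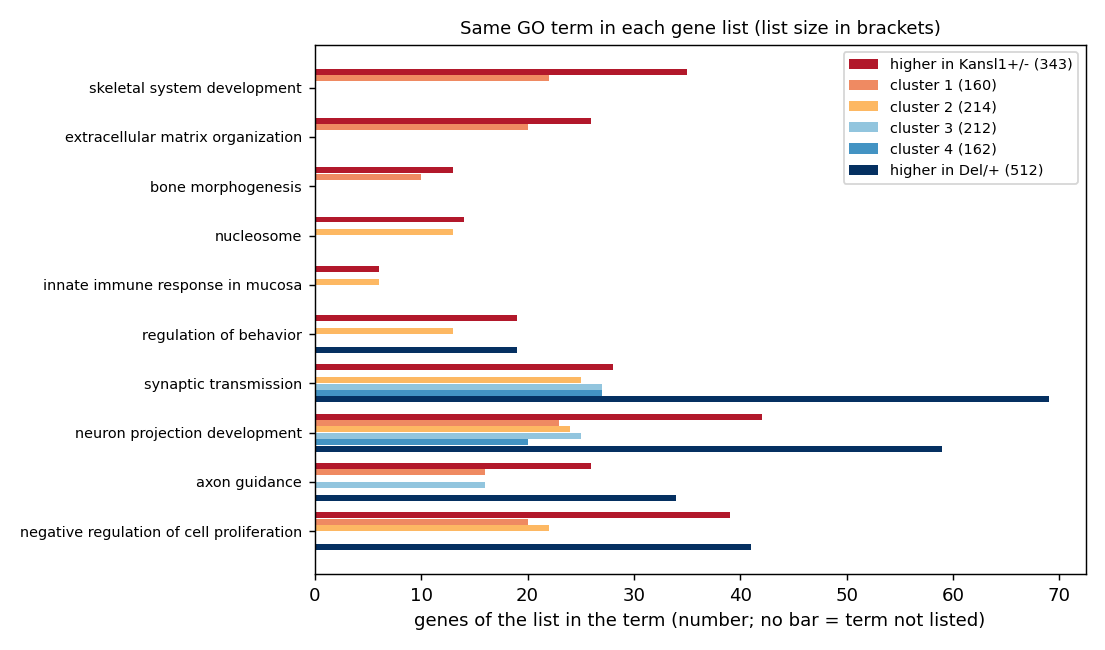
Bars give the number of genes in the same GO term for the genes higher in Kansl1+/- (343), clusters 1 to 4 and the genes higher in Del/+ (512), for 10 named terms. A missing bar means that the term was not listed for that list, not that it held 0 genes, and the synaptic transmission bars run from 25 genes in cluster 2 to 69 in Del/+.

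Of the 183 specific terms, 95 were also listed for cluster 1. These were 15 of the 19 neuron terms, all 7 matrix terms, 11 of the 15 skeletal and growth terms and 27 of the 35 organ terms, and the rest lay in other themes. None of the 10 chromatin, 11 synapse and signalling or 5 mucosal and humoral immune terms was listed for cluster 1. The broader negative regulation of immune system process held 20 of 390 background genes in the higher list. It was called there, but not with the EASE count, and was listed for cluster 1 with 14 genes. The counts of a cluster are not shares of the higher list. Clusters 1 and 2, of 160 and 214 genes, together exceed its 343 genes, and their 23 and 24 genes of neuron projection development exceed its 42, so some of their genes lie outside the list if the clusters do not overlap.

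The genes lower in Kansl1+/- were led by catalytic activity, with 172 of 483 genes (35.6%, 31.3% to 40.1%) against 23.9% of the background, a fold of 1.49 and a corrected exact p of 7.70e-05. Mitochondrion came in place 3, with a fold of 1.96, the highest among the called terms of this direction. Its 69 genes were 14.3% of the list (11.3% to 17.7%) against 7.27%, where 35.1 genes were expected. The other 7 called terms named the cell interior and its organelles. Membrane-bounded organelle held 288 genes (1.26-fold) and cytoplasm 264 (1.26-fold), and these nested terms share most of their genes. The background was not limited to genes with the mark, and its part in these folds was not tested.

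The 1 specific term of the lower genes was transferase activity, transferring one-carbon groups, which covers the enzymes that move methyl and related groups. It held 16 of 205 background genes (3.31%, 1.91% to 5.32%, against 0.874%), at 3.79-fold. Its exact p was 5.86e-06 without correction and 0.124 with it, so it was not called. A count of 16 is the smallest that reaches the listing limit for a term of this size. Small molecule metabolic process (76 genes), single-organism metabolic process (128), molecular_function (451) and cytoplasmic part (203) also stood at the smallest count that would be listed, and none of these 4 was called.

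**Figure D4:**
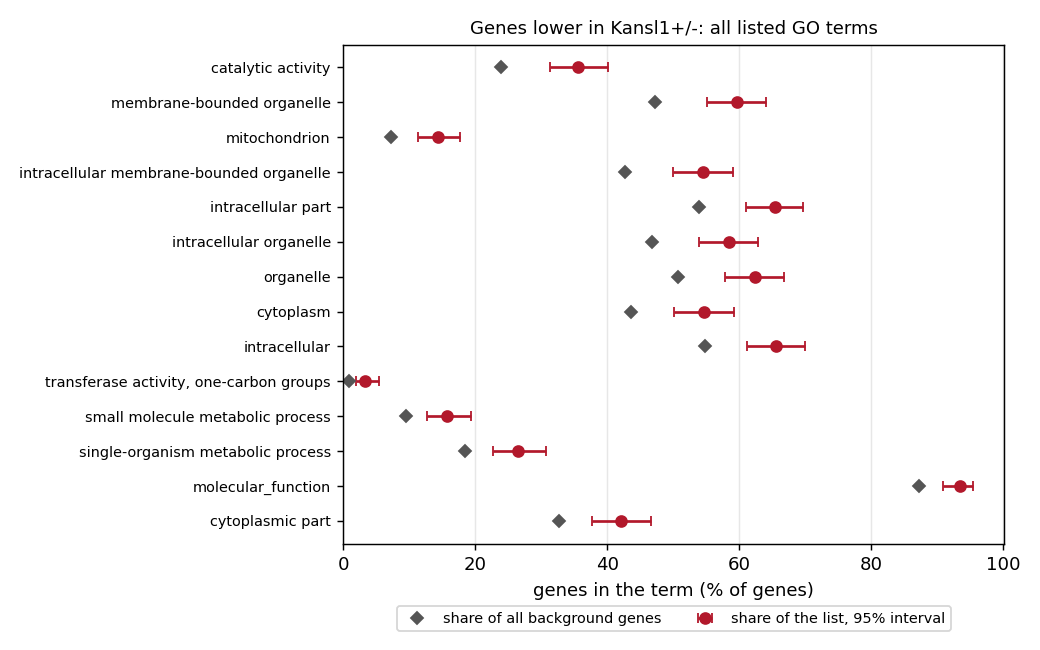
Red circles show the share of the 483 genes lower in Kansl1+/- that each of the 14 listed terms holds, in percent, with exact 95% intervals as bars, and grey diamonds show the share of the background. Terms are in order of p from the top. Membrane-bounded organelle stands at 59.6% against 47.2%, catalytic activity at 35.6% against 23.9% and mitochondrion at 14.3% against 7.27%.

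The study's list of lower genes, held here without some of its chromosome 7 names, includes enzymes of several mitochondrial routes. Ivd, Gcdh and Bcat2 break down leucine, lysine and branched-chain amino acids. Decr1 acts in the oxidation of unsaturated fatty acids, Mmaa and Mmadhc in the handling of vitamin B12, Gcsh in glycine cleavage and Pck2 in making phosphoenolpyruvate. Slc25a13 is the aspartate-glutamate carrier, Lonp1 and Clpb act in mitochondrial protein quality control, Mrpl23 and Mrps31 are proteins of the mitochondrial ribosome, and Sirt4 is a mitochondrial sirtuin. Slc25a27, Fastkd2, Top1mt, Acsf3, Ssbp1, Nmnat3, Hoga1 and Ldhd, whose products also act in mitochondria, complete the named genes of this group. Methyltransferases in the list include Mettl1, Trmt44, Trmt61b and Trmt10b, which modify tRNA, Nsun4, which acts on mitochondrial rRNA, and the histone methyltransferase Setdb1, beside Mettl20, Mettl22, Hemk1 and Smyd5. Tyms and Atic are folate-dependent enzymes of nucleotide synthesis. The windows of Ivd (chr2:118861744-118862043, plus strand) and Mettl1 (chr10:127041682-127041981, plus strand) on GRCm38 show 1 promoter of each group, with CpG dinucleotides in capitals, 11 and 23 in number.
Ivd: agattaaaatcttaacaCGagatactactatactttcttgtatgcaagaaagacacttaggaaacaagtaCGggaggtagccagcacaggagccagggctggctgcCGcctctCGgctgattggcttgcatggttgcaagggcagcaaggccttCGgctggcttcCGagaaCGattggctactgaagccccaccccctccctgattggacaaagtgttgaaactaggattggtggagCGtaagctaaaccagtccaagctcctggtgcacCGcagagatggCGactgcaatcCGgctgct
Mettl1: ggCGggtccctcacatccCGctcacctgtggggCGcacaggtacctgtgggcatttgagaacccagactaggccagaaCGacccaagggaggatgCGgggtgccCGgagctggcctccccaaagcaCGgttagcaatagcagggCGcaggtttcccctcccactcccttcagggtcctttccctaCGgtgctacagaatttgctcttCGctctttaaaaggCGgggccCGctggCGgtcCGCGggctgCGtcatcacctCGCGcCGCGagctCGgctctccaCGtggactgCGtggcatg
The 18 windows found for 22 named mitochondrial genes had 9 to 40 CpG dinucleotides with a median of 14.5, and the 12 windows of the 12 methyl transfer and folate genes had 6 to 27 with a median of 19.

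How far the directions can be told apart from the missing terms depends on the count a term needed. If the files list every term under the limit, which they do not state, synaptic transmission would have been listed for the 483 lower genes from 31 genes on and skeletal system development from 27 on. For 65 of the 183 specific terms of the higher list, including skeletal system development (35 genes), neuron projection development (42, where 34 were needed), nucleosome (14, where 10 were needed) and extracellular matrix (28, where 25 were needed), the count seen among 343 higher genes would also have passed the limit among 483 lower genes. For the other terms, among them synaptic transmission and cell-cell signaling, the higher count would not have been listed in the longer list. The absence of the term there sets no order between the 2 counts, which come from lists of unequal length. Shares of the lists can still differ. If all terms under the limit were listed, synaptic transmission held fewer than 31 of the 483 lower genes. That would be a smaller share than its 8.16% of the higher list. Mitochondrion would have been listed for the higher genes from 48 genes on and the one-carbon term from 14 on.

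Cell type markers were also looked for in the study's gene names, where the lower and higher lists make up 2.06% and 1.46% of all background genes. The markers were chosen after the gene names of both lists had been read, so their counts are a description and not a test. Of 9 oligodendrocyte markers looked for, 5 were named among the lower genes, which were Mobp, Mog, Mal, Myrf and Olig1, and 0 among the higher genes. Of 7 astrocyte markers, 3 were named among the higher genes (Gfap, Sox9 and S100b) and 0 among the lower. Among the higher genes, endothelium (Kdr), ependyma and choroid plexus (Cldn2) and fibroblasts (Dcn) had 1 of 4 each. Microglia, mural cells, oligodendrocyte precursors and pyramidal neurons had 0 of their 4, 3, 2 and 3 markers among the names held in either direction. These are short lists of 2 to 9 markers and not the marker sets from single-cell data that the study used, so a count of 0 does not show that other genes of a cell type were missing from the lists. Levels of these markers per mouse were not analysed here, and their part in the GO counts was not tested.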

How the data were processed

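H3K4me3 ChIP-seq libraries of 12 hippocampi (3 Kansl1+/-, 3 Del/+ and 6 wt) were mapped by the authors with BWA 0.6.2, to mm9 according to the submitters' processing notes. Peaks came from a custom C++ program of the authors, who then compared 3 mutant with 6 wt libraries by DESeq2 at an uncorrected p below 0.01, and tested the genes by hypergeometric tests. The deposited files hold, for each GO term, gene counts, the expected number of genes (a score from the authors), and the authors' p-values, corrected p-values and folds, which were used only to recover sizes and were not reported. Depth and spread between mice are unknown, and 0 columns per sample were left unused.

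From the counts, list sizes and the background were found as the whole numbers that return every expected number, and the number of tests as the median ratio of the deposited Bonferroni value to p. Sizes of 8 simulated tables were all recovered, which checks only the code, because these tables were built with the same formulas. The exact hypergeometric p ranked terms, and terms with at most 1000 background genes were specific. Named terms were the 20 with the lowest p, the lowest p and highest fold (at least 5 genes) of each theme, and all lower terms. Others are named as examples of a theme. Genes were named by family from the study's lists, without values. Interneuron markers are not reported here. Themes, families, markers and tests were chosen with earlier results of these data known. Alternatives were the EASE count, term sizes of 500 and 2000, no correction, the largest implied list size and ranking by fold. Promoter windows came from RefSeq (GRCm38.p6), with the first window taken for genes with several. Scripts ran in Python 3.11.15 with scipy 1.17.1 (numpy 2.4.6), and figures were drawn with matplotlib 3.10.9.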

Additional observations from a re-analysis of the deposited data

How the results depend on the processing

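For the genes higher in Kansl1+/-, 132 specific terms were called. The EASE count, which takes 1 gene from each term, left 92, the largest list size implied by any term (347 in place of 343) left 128, a size limit of 2000 genes gave 179, no correction gave 183, and a limit of 500 genes gave 79. For the lower genes, 0 specific terms were called, also with the EASE count, the 500 limit and the largest list size, while a limit of 2000 genes added 1 (mitochondrion) and no correction 1 (the one-carbon term). Of the 20 leading specific terms, 19 stayed among the first 20 with the EASE count and 3 with ranking by fold, which favours small terms by construction. No replicate could be left out because the files hold counts over called genes and no values per mouse. No paired analysis was possible because the result comes from no test over samples. Depth is unknown, so its limit on the calls cannot be given.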
